A study of Mus musculus with 2 samples.

Results

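Retinoid handling was followed through 9 genes of the small intestinal epithelium, Rdh7, Rbp2, Rbp4, Aldh1a1, Dhrs3, Bco1, Cyp26b1, Lrat and Isx, chosen by name from the 31053 genes of the deposited matrix. Of these, 8 had at least 1 unique molecular identifier (UMI, a tag by which each captured RNA molecule is counted once) in the cells kept, and Isx had 0 UMIs in all 21806 barcodes. The study grew mouse small intestinal organoids, epithelial cultures with no host tissue, either untreated (control) or with melatonin, and its title concerns repair epithelium, prostaglandin E2 and YAP. No label states a dose in words, and the age, strain and sex of the mice are not given in the sources used here. Both groups were taken at day 3 of culture, and cells of 3 organoid lines were mixed before droplet capture, so the lines are not separate replicates. The files labelled control and melatonin were identical in 3 of 3 kinds, and they hold 1 matrix whose barcodes end in 1 (called set 1 here) or in 2 (set 2). No label ties an ending to a treatment, so both labelled samples were handled as 1 sample. Which set, if either, was treated cannot be read from them, and no test was possible. Values of the members are a description: they were named with results of these data known, and Rdh7 had already been picked out for its ratio between the sets.

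Vitamin A reaches the intestine as retinyl esters or as provitamin A carotenoids. Bco1 cleaves beta-carotene to retinal, Rbp2 carries retinol and retinal inside the absorptive enterocyte, and Lrat esterifies retinol for export in chylomicrons. Retinol dehydrogenases such as Rdh7 oxidise retinol to retinal, Dhrs3 reduces retinal back to retinol, Aldh1a1 oxidises retinal to retinoic acid, and Cyp26b1 hydroxylates retinoic acid. Isx is a homeobox factor that represses Bco1 in the intestine, and Rbp4 encodes the secreted carrier of retinol in plasma.

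Cells were barcodes with 500 genes or more, 1000 UMIs or more and a mitochondrial share of 20% or less, which left 2300 cells in set 1 and 1766 in set 2. They carried 61628537 and 51111519 UMIs, with medians of 29872 and 28759 UMIs per cell. Of the barcode sequences, 29 occurred with both endings, and 7 kept cells carried one of them. The epithelial gene Epcam had a UMI in 96.0% and 97.8% of cells, while the summed immune markers stood at 1.14 and 0.920 UMIs per 1000000 (CPM) and the mesenchymal markers at 0.211 and 0.157 CPM. Cells were gated on marker UMIs per 10000. Enterocyte-like cells numbered 186 in set 1 (8.09%) and 214 in set 2 (12.1%), enteroendocrine-like cells 258 (11.2%) and 259 (14.7%), and proliferating-like cells 1339 (58.2%) and 744 (42.1%). Goblet- or Paneth-like cells numbered 30 and 15, and the revival-like gate, whose leading genes Crct1, Ly6d and Cnfn are squamous epithelial genes, took 16 and 25. No gate took 436 and 470 cells, whose median depth was 4823.5 UMIs in set 1 and 26134 in set 2, and 35 and 39 cells passed gates of more than one lineage and were kept apart. A gate is a range and not a type: within 1.5-fold of the enterocyte threshold lay 210 cells below it and 94 above it, against 27 and 53 for the enteroendocrine threshold.

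The members fell into 3 patterns. Rbp2, Aldh1a1, Rdh7, Dhrs3 and Bco1 were higher in enterocyte-like than in other cells in each set, though Dhrs3 and Bco1 not under every setting. Among single-lineage classes Rbp4 and Bco1 were highest in enteroendocrine-like cells, where Rbp4 lay almost wholly in those that carried peptide hormone RNA. Lrat was low and was counted mainly in enterocyte-like, proliferating-like and ungated cells, Cyp26b1 had 8 UMIs in set 1 and 7 in set 2, and Isx none. A gene was called apart between groups of cells where they had at least 10 UMIs together, differed at least 1.5-fold and had 95% Poisson intervals that did not overlap. These intervals cover counting error only, and because the assay reads RNA ends at the 3′ side, 1 UMI stands for 1 molecule whatever the gene's length.

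**Figure D1:**
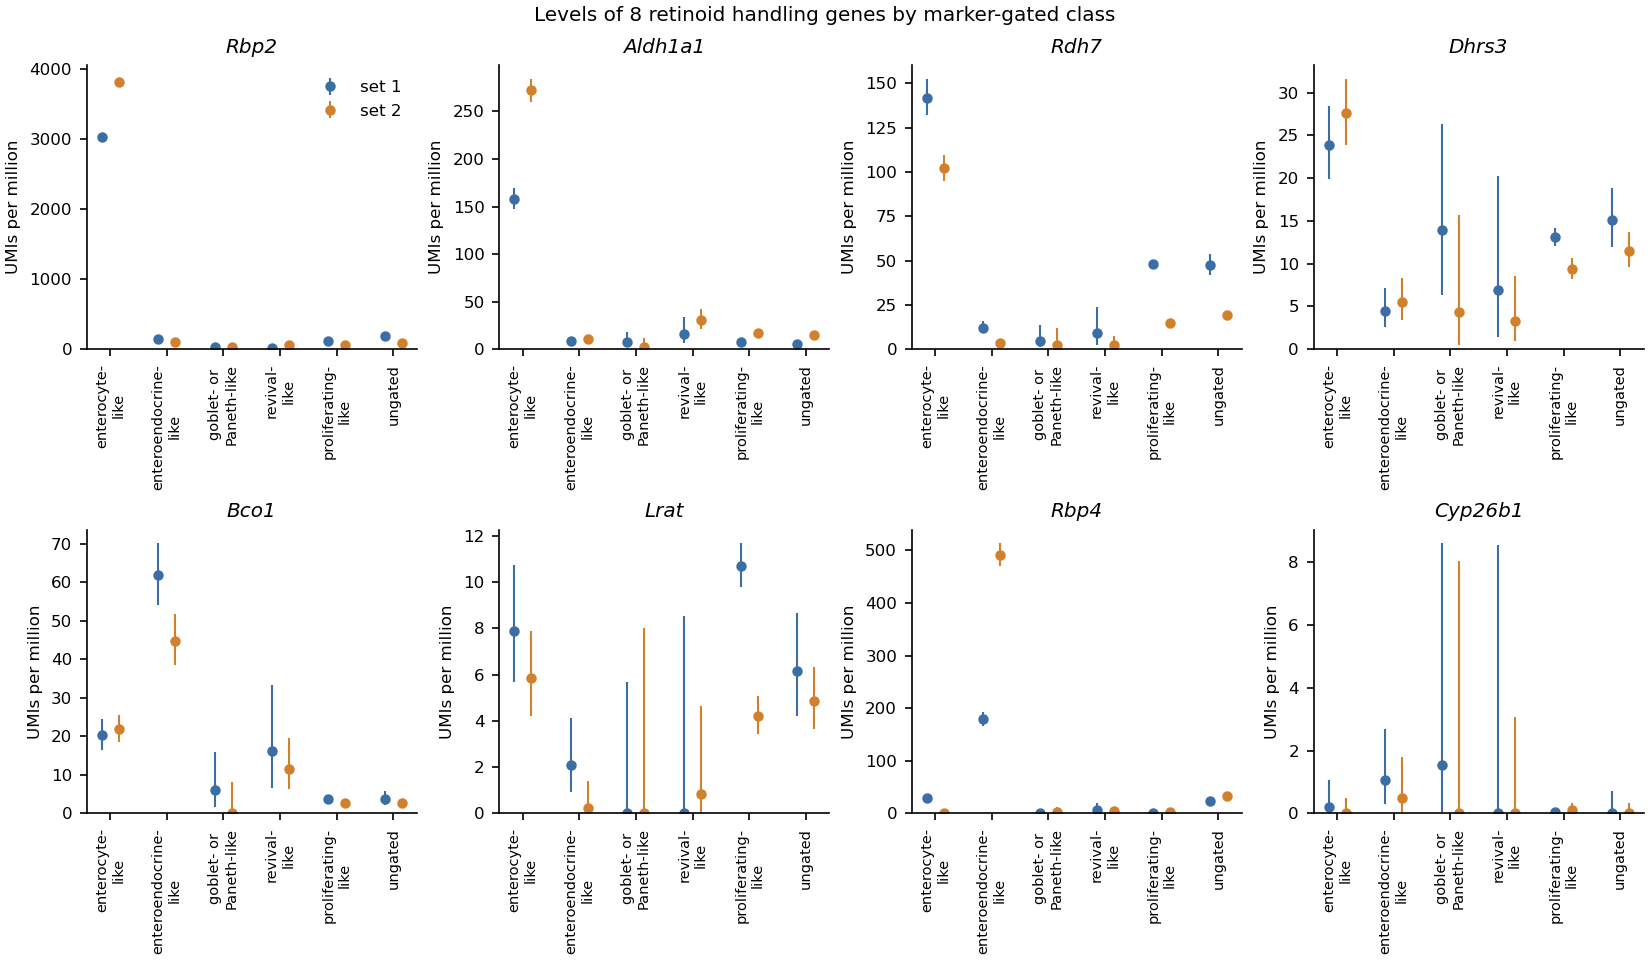
Level of each detected member in UMIs per 1000000 (y axis, linear, from 0) in the 6 classes of cells (x axis), with set 1 in blue and set 2 in orange. Points are summed UMIs and bars the exact 95% Poisson intervals; Rbp2 stands at 3027 and 3821 CPM in enterocyte-like cells and Rbp4 at 179 and 492 CPM in enteroendocrine-like cells.

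The 250 bases before the annotated start are shown for the 5 members that define these patterns, with the hexamer known from retinoid and related nuclear receptors in capitals on either strand, spelled AGGTCA in its consensus form and AGTTCA for one variant, GGGTCA for another and GGTTCA for the last. Sequences and positions are those of RefSeq on build GRCm38.p6, matched by symbol for 9 of 9 members and written along the gene. The build of the deposited counts is not given in the sources used here. Rdh7, Aldh1a1 and Rbp4 have 2 listed starts each, and the start whose following bases occur within an annotated coding transcript is printed.
Rbp2, chr9:98490287-98490536, plus strand: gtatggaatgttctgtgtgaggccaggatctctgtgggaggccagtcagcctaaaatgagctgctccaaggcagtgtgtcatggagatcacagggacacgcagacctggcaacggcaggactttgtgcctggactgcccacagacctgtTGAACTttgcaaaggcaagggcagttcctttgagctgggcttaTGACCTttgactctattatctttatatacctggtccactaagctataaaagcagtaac
Bco1, chr8:117095615-117095864, plus strand: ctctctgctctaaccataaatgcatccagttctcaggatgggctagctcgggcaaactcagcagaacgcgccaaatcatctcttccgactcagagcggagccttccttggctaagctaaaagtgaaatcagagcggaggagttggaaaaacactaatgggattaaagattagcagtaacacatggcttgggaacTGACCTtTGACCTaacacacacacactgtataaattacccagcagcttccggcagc
Rdh7, chr10:127888734-127888983, minus strand: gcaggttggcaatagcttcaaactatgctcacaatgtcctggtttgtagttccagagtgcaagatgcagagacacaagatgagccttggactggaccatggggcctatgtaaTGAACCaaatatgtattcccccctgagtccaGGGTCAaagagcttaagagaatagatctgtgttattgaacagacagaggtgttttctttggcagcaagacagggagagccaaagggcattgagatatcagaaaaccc
Aldh1a1, chr19:20601718-20601967, plus strand: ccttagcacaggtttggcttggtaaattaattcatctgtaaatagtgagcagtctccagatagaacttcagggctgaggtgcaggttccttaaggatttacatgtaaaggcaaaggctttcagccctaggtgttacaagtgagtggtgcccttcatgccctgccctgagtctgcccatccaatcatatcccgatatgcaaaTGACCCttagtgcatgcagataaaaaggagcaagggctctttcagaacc
Rbp4, chr19:38124812-38125061, minus strand: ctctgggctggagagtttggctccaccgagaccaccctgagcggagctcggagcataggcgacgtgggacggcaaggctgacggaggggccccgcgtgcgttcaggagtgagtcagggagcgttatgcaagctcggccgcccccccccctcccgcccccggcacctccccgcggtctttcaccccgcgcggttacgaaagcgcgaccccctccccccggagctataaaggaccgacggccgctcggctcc
Bco1 held AGGTCA 2 times, at -56 and -49 from the start on the opposite strand, which places the copies as a direct repeat with a spacing of 1 base. That arrangement, counted over pairs of these hexamers in 1 orientation, occurred in 0.165% of 32817 promoters of the same length. Rbp2 held hexamers at -101 and -58, Rdh7 at -138 and -107 and Aldh1a1 at -49, while a hexamer of either strand occurred in 38.6% of promoters. The letters AGATAA were found at -43 in Rbp2 and at -32 in Aldh1a1, and in 9.99% of promoters. In these windows no hexamer was found for Rbp4 at the printed start, Lrat, Dhrs3 or Cyp26b1, the start not printed held one at -53 for Rbp4 and at -105 for Rdh7, and Isx held GGTTCA at -46. For Lrat and Cyp26b1 the bases that follow the only listed start occurred in no annotated coding transcript, so their windows may be misplaced. A match is a string of letters only, and no binding was measured.

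Bco1, the carotenoid cleaving enzyme, was highest among single lineages in enteroendocrine-like cells. Set 1 held 61.7 CPM there (interval 54.1 to 70.2) and set 2 44.7 CPM (38.4 to 51.8), and the cells of more than one lineage held 33.2 and 47.2 CPM. Enterocyte-like cells followed at 20.2 CPM (16.6 to 24.5) and 21.9 CPM (18.6 to 25.5), and revival-like cells, with 7 and 14 UMIs, were not separable from them. Proliferating-like cells stood at 3.70 and 2.58 CPM. The order enteroendocrine-like, enterocyte-like, proliferating-like was the same in each set, while the cells of more than one lineage lay below the first of these in set 1 and within its interval in set 2. Thinned to 2000 UMIs per cell, Bco1 was expected in 11.5% (7.87% to 16.1%) and 9.15% (5.90% to 13.4%) of enteroendocrine-like cells, against 3.75% and 4.40% of enterocyte-like cells. The shares without thinning were 53.1% and 47.5% against 31.2% and 39.3%, while a median enteroendocrine-like cell had 14231.5 and 14452 UMIs and a median enterocyte-like cell 31601.5 and 34083. The low-depth class thus had the higher value. At 2000 UMIs the intervals of these classes overlapped in each set, so no order of the shares is read there. Without thinning they were apart in set 1 only. The 3′ end of 1 Bco1 transcript shares 17.9% of its 31-base words with other genes, so its count could be split with them.

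Isx, the factor known to repress Bco1, gave no UMI in either set, for which the limit of 3 UMIs is 0.0487 and 0.0587 CPM over all cells of the sets. In enterocyte-like cells, where the gene is known to be used in the intestine, the same limit is 0.578 and 0.408 CPM. The carotenoid uptake receptor Scarb1 was counted at 66.7 and 66.1 CPM in these cells. Whether the gene was not expressed or not counted was not tested.

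Rbp2 was the most abundant member. Enterocyte-like cells held it at 3027 CPM (2980 to 3075) in the first set and 3821 CPM (3776 to 3865) in the other, 23.4-fold and 40.7-fold above the other cells of the set. On the log2 scale with a pseudocount of 1 CPM these ratios were 4.54 and 5.33, and they were 3.60 and 4.43 with a mitochondrial limit of 10% and 3.29 and 4.95 with gates at 0.5 times the threshold. This class made up 8.42% and 14.4% of all UMIs and 68.3% and 87.3% of those of Rbp2. Within the class the gene was uneven: the median cell carried 14.3 Rbp2 UMIs per 10000 in set 1 and 33.4 in set 2, and the highest cells carried 169 and 131. Among the other single-lineage and ungated classes of set 1 the order was ungated cells at 193 CPM, enteroendocrine-like at 144 CPM and proliferating-like at 120 CPM, each with an interval that did not overlap its neighbour's. In set 2 enteroendocrine-like cells at 101 CPM and ungated cells at 93.7 CPM overlapped, as did proliferating-like cells at 66.5 CPM and revival-like cells at 53.3 CPM.

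Rbp2 RNA outside the enterocyte gate was set against the 12 enterocyte markers. In enterocyte-like cells there were 10.2 and 11 Rbp2 UMIs per 100 UMIs of that list, and in enteroendocrine-like cells 11.4 and 10.6, so that these classes had close ratios at far different levels. The ratio was lower in proliferating-like cells, at 5.40 and 5.06, in ungated cells, at 8.08 and 6.34, and in goblet- or Paneth-like cells, at 2.74 and 5.0, and it was 3.74 and 9.54 in revival-like cells. The share of enteroendocrine-like cells with an Rbp2 UMI at 2000 UMIs per cell was 20.5% and 14.1%, and that of goblet- or Paneth-like cells 6.76% and 4.33%, against 82.2% and 90.7% of enterocyte-like cells. Median depths before thinning were 14231.5 and 14452, 21381.5 and 24119, and 31601.5 and 34083 UMIs. Whether these UMIs come from free RNA was not tested. Bco1 did not keep that ratio, at 0.0684 and 0.0628 UMIs per 100 list UMIs in enterocyte-like cells and 4.89 and 4.69 in enteroendocrine-like cells.

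Rbp4, the secreted plasma carrier, had 44.2% and 72.3% of its UMIs in enteroendocrine-like cells and 33.3% and 11.9% in cells of more than one lineage. Its level in enteroendocrine-like cells was 179 CPM (166 to 193) and 492 CPM (471 to 514), 12-fold and 30.6-fold above other cells. The log2 ratio, 3.5 in set 1 and 4.85 in set 2, was 1.75 and 4.84 with gates at 0.5 times the threshold and 1.79 and 3.02 with gates at 2 times the threshold. Proliferating-like cells stood at 1.56 and 1.93 CPM. The gene was concentrated in few cells, with a UMI in 16.7% and 36.3% of enteroendocrine-like cells and with 51.9% and 27.5% of the UMIs of that class in the 3 highest cells. Cells of more than one lineage, most of them enteroendocrine with goblet or Paneth markers, held Rbp4 at 710 and 320 CPM.

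In enterocyte-like cells Rbp4 stood at 28.5 CPM in set 1 and 0.272 CPM in set 2, but 95.9% of its UMIs in set 1 lay in 3 cells. With enterocyte-like cells that carried at least 10 enteroendocrine marker UMIs per 10000 left out, a choice made after the data were seen, the log2 ratio of enterocyte-like to other cells in set 1 moved from 0.20 to -3.57. It was 1.74 with a mitochondrial limit of 10%, 1.33 with mixed cells placed in the class of their larger marker share and -4.05 with all gates at 0.5 times the threshold, so no direction is read from it. Outside the enteroendocrine-like and mixed cells, 73.6% of the Rbp4 UMIs of set 1 lay in 31 cells that carried a peptide hormone gene at 20 UMIs per 10000 or more, and 84.5% of those of set 2 in 11 such cells. The cells with neither peptide hormone RNA nor enteroendocrine markers held 1.58 and 1.45 CPM.

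Lrat, which esterifies retinol, was low, at 7.90 CPM (5.67 to 10.7) and 5.84 CPM (4.23 to 7.87) in enterocyte-like cells. Proliferating-like cells of set 1 stood at 10.7 CPM (9.77 to 11.7), which overlaps the enterocyte-like interval, and in set 2 at 4.2 CPM (3.45 to 5.07), which overlaps it too. Enteroendocrine-like cells had 8 UMIs and 1 UMI, at 2.10 CPM (0.907 to 4.14) and 0.248 CPM (0.00629 to 1.38). These intervals lay below those of enterocyte-like and proliferating-like cells in each set. Goblet- or Paneth-like cells had 0 UMIs in each set, where the limit of 3 UMIs is 4.63 and 6.53 CPM, so the place of that class in the order is not read. Of all Lrat UMIs, 85.6% in set 1 and 52.4% in set 2 lay in proliferating-like cells, which made up 74.0% and 50.7% of all UMIs. Against the enterocyte markers Lrat stood at 0.481 and 0.320 per 100 list UMIs in proliferating-like cells and at 0.0267 and 0.0168 in enterocyte-like cells. Its level therefore did not follow these markers.

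Rdh7, an oxidising short-chain dehydrogenase, stood at 142 CPM (132 to 153) in enterocyte-like cells of set 1 and 102 CPM (94.9 to 110) in those of set 2. Proliferating-like cells held 48.0 CPM (46.0 to 50.1) and 14.7 CPM (13.2 to 16.2), and ungated cells 47.6 and 19.1 CPM. Enteroendocrine-like cells were low at 12.1 and 3.48 CPM. At 2000 UMIs per cell, Rdh7 was expected in 23.5% and 17.9% of enterocyte-like cells, 9.0% and 2.81% of proliferating-like cells and 2.12% and 0.55% of enteroendocrine-like cells. The order enterocyte-like, proliferating-like, enteroendocrine-like held in each set with intervals of the levels that did not overlap.

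Aldh1a1, which makes retinoic acid, stood at 158 CPM (148 to 170) in enterocyte-like cells of set 1 and 272 CPM (260 to 284) in those of set 2. All other single-lineage classes lay at 30.8 CPM or less. The highest of these were revival-like cells, with 16.2 and 30.8 CPM from 7 and 37 UMIs. Enteroendocrine-like cells at 8.41 and 11.2 CPM lay close to proliferating-like cells at 7.23 and 16.7 CPM, with intervals that overlapped in set 1 only. Of the 3 Aldh1a1 transcripts examined, 1 shares 23.8% of the 31-base words of its 3′ end with the paralogue Aldh1a7, which itself stood at 36.1 and 52.3 CPM in enterocyte-like cells, so reads of the pair may be divided unevenly.

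Dhrs3, which turns retinal back into retinol, had a narrower range. Its levels were 23.9 CPM (19.9 to 28.5) and 27.6 CPM (23.9 to 31.7) in enterocyte-like cells, 13.1 and 9.37 CPM in proliferating-like cells and 4.47 and 5.47 CPM in enteroendocrine-like cells. Cyp26b1, which clears retinoic acid, was close to the limit of detection. Its 15 UMIs lay in 15 cells, of which 6 were enteroendocrine-like, and its level is compared between the sets only.

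Counted over the members, enterocyte-like cells were higher than other cells for 5 of 7 members with enough UMIs in set 1, where 10.0% of all genes tested were higher, and for 5 of 7 in set 2, where 11.1% were. The lower member was Rbp4 in set 2. Enteroendocrine-like cells were higher for 2 of 7 in each set, Rbp4 and Bco1, beside 40.6% of all genes in set 1 and 36.9% in set 2. They were lower for the other 5 of 7 in each set, beside 14.4% and 16.7% of genes. With a pseudocount of 10 CPM, the set 2 ratios of Dhrs3 and Lrat in this comparison were -0.54 and -0.49 on the log2 scale. Both are under 1.5-fold, and Lrat rests on 1 UMI in those enteroendocrine-like cells. The median log2 ratio of enteroendocrine-like over other cells was -1.43 and -2.11 over the members and 0.40 and 0.32 over all genes tested. Since the members were chosen by name from earlier results, these counts describe them and test nothing. With a mitochondrial limit of 10% in place of 20%, Aldh1a1 in set 1 turned from -1.29 to 0.15 on the log2 scale in enteroendocrine-like over other cells, and the Bco1 ratio of enterocyte-like over other cells was 0.33 and 0.30 in the sets in place of 1.22 and 1.39. Rbp2 in enteroendocrine-like over other cells was then -0.26 and -0.73 in place of -1.43 and -2.72. With gates at 0.5 times the threshold, the Bco1 ratio of enterocyte-like over other cells was 0.02 in set 1 and 1.01 in set 2. The Dhrs3 ratio of set 1, 0.84, was 0.57 with these gates and 0.57 with a pseudocount of 10 CPM, under 1.5-fold in either case.

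Since the enterocyte gate cuts a continuous range, cells outside the other lineage gates were also ordered by their share of enterocyte markers, in 11 bins of 34 to 535 cells in set 1 and 33 to 354 in set 2. Rbp2 stood at 43.0 and 30.2 CPM in the lowest bin of the sets and at 6360 and 5920 CPM in the highest. Fabp1, Alpi and the other markers that order the bins fix much of such a slope, so it is a description. Aldh1a1 stayed between 4.2 and 9.1 CPM over the 7 lowest bins of set 1 and was then 14.8, 65.9, 210 and 378 CPM. Set 2 was already at 23.1 CPM in the bin that starts at 20 marker UMIs per 10000 and at 71.0 CPM in that which starts at 60. Bco1 stood at 16.9 CPM or less in all bins but the highest, where it was 49.0 and 42.5 CPM. Lrat did not follow the order, with its highest values in the middle bins.

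**Figure D2:**
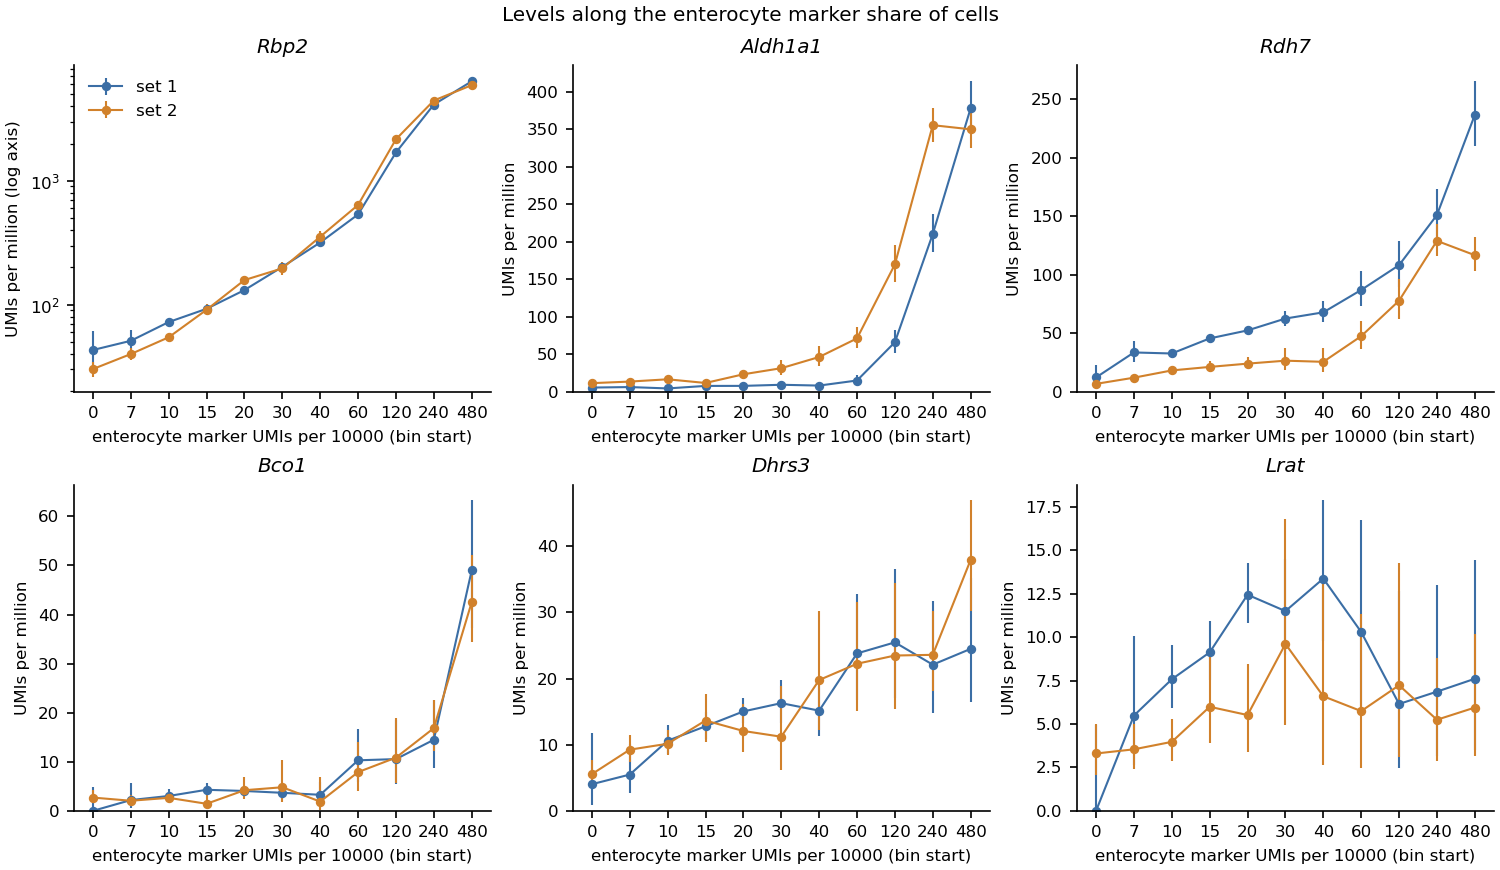
Levels of 6 members in UMIs per 1000000 (y axes, a log axis for Rbp2) against the enterocyte marker share of the cells, given as the start of each bin in UMIs per 10000 (x axes, evenly spaced bins), with set 1 in blue and set 2 in orange. Points are summed UMIs of a bin and bars exact 95% Poisson intervals; the Rdh7 line of set 1 lies above that of set 2 in 11 of 11 bins and the Aldh1a1 line of set 2 above that of set 1 in 10 of 11.

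Enteroendocrine-like cells were divided by their hormone genes, counting a gene as present at 20 UMIs per 10000 or more. Cells with a peptide hormone gene (Gcg, Pyy, Cck, Gip, Sst, Ghrl, Nts or Sct) numbered 44 and 91 in the sets. They held Rbp4 at 1004 CPM (929 to 1083) and 1262 CPM (1207 to 1319), and other enteroendocrine-like cells at 6.04 CPM and 9.70 CPM, folds of 166 and 130. Cells with Tph1, which makes serotonin, or Tac1, the substance P precursor, but no peptide hormone of that list numbered 173 and 148 and held Rbp4 at 6.71 and 10.3 CPM. Rbp4 was therefore high in one group of enteroendocrine-like cells and low in the other.

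Groups of cells with Gip, Ghrl, Gcg, Cck or Sct were compared, and cells with Pyy, Sst or Nts are not ranked here. Among the groups compared, cells with Gip, the incretin of K cells, had the most Rbp4, at 3056 CPM over 7 cells in set 1 and 1751 CPM over 24 cells in set 2. In set 1, 96.2% of these UMIs came from 3 cells. Cells with Ghrl (ghrelin) held 1442 and 1372 CPM, cells with Gcg (the glucagon-like peptide precursor) 979 and 1247 CPM, cells with Cck (cholecystokinin) 796 and 1238 CPM, and cells with Sct (secretin) 684 and 1206 CPM. A cell can carry several of these genes and was then counted in each, so these values share cells. The lowest value among these 5 groups was 684 CPM, and their order by level was the same in each set, although in set 2 the values of the Gcg, Cck and Sct cells lay close together.

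Bco1 was found with and without peptide hormones. It stood at 69.6 and 35.5 CPM with peptide hormones and at 66.0 and 54.0 CPM in cells with Tph1 or Tac1 alone. Cells with Neurog3, the factor of early enteroendocrine precursors, numbered 13 in each set and held 110 CPM (68.4 to 169) and 92.5 CPM (52.9 to 150), above the Tph1, Tac1 and Cck groups. The intervals of the Neurog3 cells overlapped those of the Tph1 cells at 79.7 and 71.4 CPM. Among the hormone groups named here, Rbp2 was highest in the Gip cells, at 570 and 351 CPM, where 87.3% and 46.3% of its UMIs came from 3 cells. The enterocyte marker Fabp1 stood at 235 and 106 CPM in those cells, against 80.2 and 61.9 CPM over all peptide hormone cells, and its part in the result was not tested.

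Over the members, peptide hormone cells were higher than other enteroendocrine-like cells for 1 of 6 in set 1 (Rbp4), where 2.99% of genes were higher, and for 2 of 6 in set 2 (Rbp4 and Rbp2), where 4.67% were. Without the 3 highest cells of each gene, the Rbp2 ratio of set 2 was 0.37 in place of 0.71 on the log2 scale and no longer apart. In set 1, 15 of the 44 peptide hormone cells had UMIs of Rbp4 and Bco1 together, 12 of Rbp4 alone, 11 of Bco1 alone and 6 of neither. In set 2 the numbers were 34, 40, 4 and 13 of 91.

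**Figure D3:**
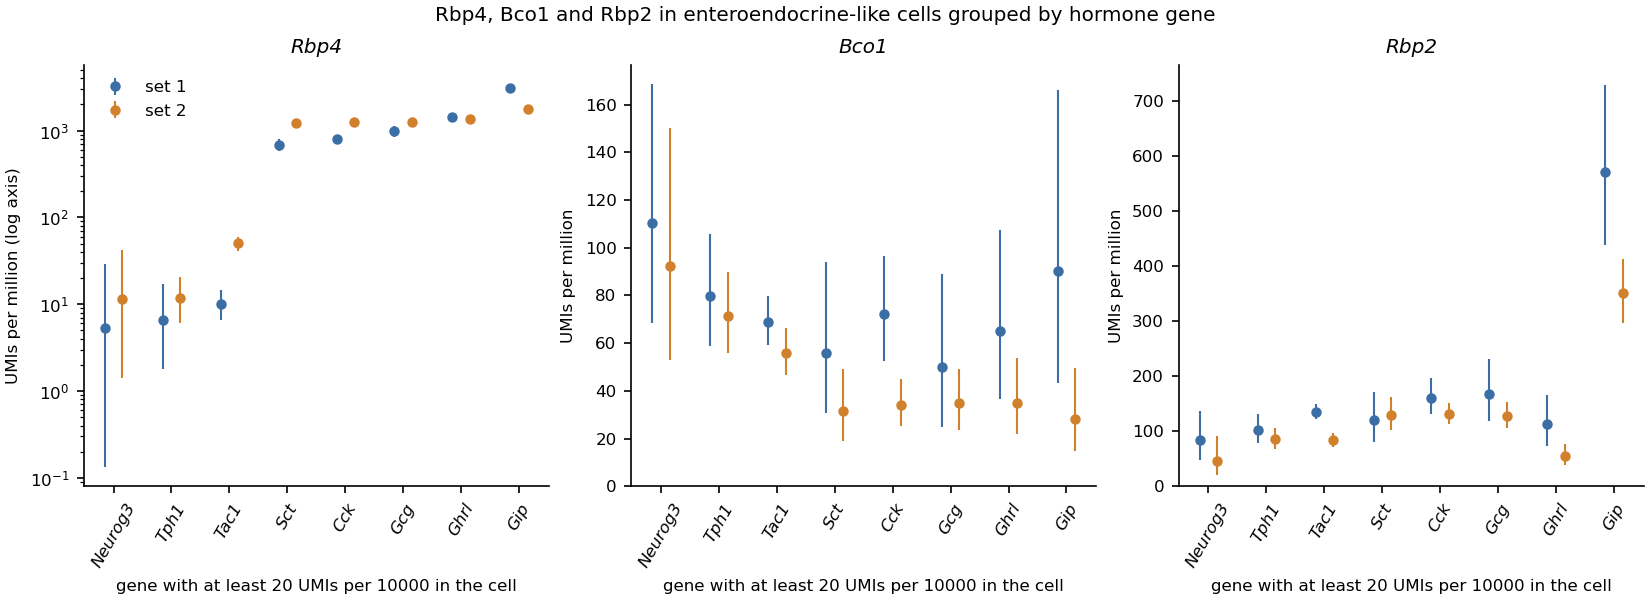
Levels of Rbp4 (log axis), Bco1 and Rbp2 in UMIs per 1000000 (y axes) in enteroendocrine-like cells that carry the hormone or precursor gene named on the x axis, with set 1 in blue and set 2 in orange and exact 95% Poisson intervals as bars. Rbp4 lies at 684 CPM or more in the Sct, Cck, Gcg, Ghrl and Gip groups and at or under 50.1 CPM in the Neurog3, Tph1 and Tac1 groups.

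Between the barcode sets, 5 of 8 members with enough UMIs were apart over all cells, beside 3.86% of all genes tested. The members were named with results of these data known, and Rdh7 was picked out for this ratio. This count and those within classes and bins below therefore describe the members and test nothing. Rbp2 (373 and 630 CPM, log2 ratio of set 2 over set 1 of 0.75), Rbp4 (25.1 and 53.6 CPM, 1.07) and Aldh1a1 (21.1 and 54.1 CPM, 1.32) were higher in set 2. Rdh7 (52.8 and 26.9 CPM, -0.95) and Lrat (9.25 and 4.07 CPM, -1.02) were higher in set 1. Dhrs3 (13.8 and 12 CPM, -0.19), Bco1 (9.14 and 9.76 CPM, 0.09) and Cyp26b1 (0.130 and 0.137 CPM from 8 and 7 UMIs, 0.01) were not apart. Log2 ratios are on CPM plus 1, which makes the ratio of a low gene smaller than it is. With a pseudocount of 10 CPM the Lrat ratio was -0.45, under 1.5-fold and so no longer apart. With the mitochondrial limit at 10%, which most enterocyte-like cells exceed, the Rbp2 ratio was -0.10 and that of Rdh7 -1.43.

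The proportions of cell classes differ between the sets, and the ratios within classes differed from those over all cells. Within enterocyte-like cells 2 of 7 members were apart, Aldh1a1 (0.78) and Rbp4 (-4.54, from the 3 cells named above), beside 6.05% of genes. Rbp2 was 0.34 there and Rdh7 -0.47, with intervals apart but under 1.5-fold. With all gates at 0.5 times the threshold, 4 members were apart: Aldh1a1 (1.77) was joined by Rbp2 (1.32), Bco1 (0.83) and Lrat (-0.66), while Rbp4 (-0.32) was no longer apart. With all gates at 2 times the threshold Aldh1a1 stood at 0.56 and was no longer apart, and Rbp4 at -2.09 was. Within enteroendocrine-like cells 2 of 6 were apart, Rbp4 (1.45) and Rdh7 (-1.55), beside 4.48% of genes. The Rbp4 ratio was 2.71 with gates at 0.5 times the threshold and 2.04 without the 3 highest cells, and that of Rdh7 was -0.71 with a pseudocount of 10 CPM. The peptide hormone cells, which held nearly all of this Rbp4, were 44 of 258 cells in set 1 and 91 of 259 in set 2, and within them Rbp4 was 1004 and 1262 CPM, less than 1.5-fold different.

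Within proliferating-like cells 4 of 7 members were apart, Rdh7 (-1.65), Lrat (-1.17), Rbp2 (-0.84) and Aldh1a1 (1.10), beside 3.86% of genes. Within ungated cells 3 of 7 were apart, Rdh7 (-1.28), Rbp2 (-1.04) and Aldh1a1 (1.23), beside 4.69% of genes. Rdh7 had the lower value in set 2 and Aldh1a1 the higher one in all of these classes, those not apart included, while for Rbp2 the sign differed. The median marker share of the enterocyte list was 178 per 10000 in enterocyte-like cells of set 1 and 364 in those of set 2, and 20.3 and 10.8 in proliferating-like cells, so the enterocyte markers moved between the sets in the direction that Rbp2 did in both classes. Their part in the result was not tested.

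Cells of like marker share were then compared. Over the 11 bins the mean log2 ratio of set 2 over set 1 was -0.03 for Rbp2, with set 2 higher in 5 bins, intervals apart in 4, and set 1 in 6, intervals apart in 2. The ratio ranged from -0.50 to 0.35 over the bins. For Rdh7 it was -0.94, with set 1 higher in 11 of 11 bins and intervals apart in 8. For Aldh1a1 it was 1.27, with set 2 higher in 10 of 11 bins and intervals apart in 8, and the exception was the highest bin at 378 and 350 CPM. Lrat was higher in set 1 in 9 of 11 bins, with intervals apart in 2. For Dhrs3 (0.10) and Bco1 (0.00) the sets were higher in about as many bins each. Bins hold different cells of the same 2 barcode sets and are not replicates, and set and treatment cannot be told apart.

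**Figure D4:**
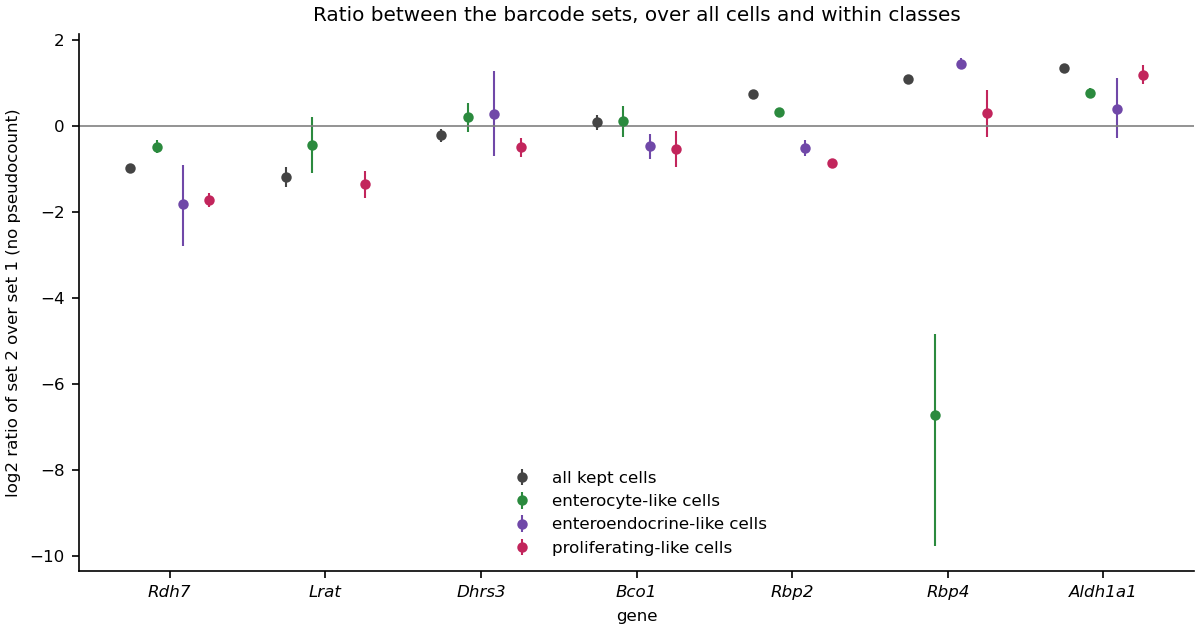
Log2 ratio of set 2 over set 1 (y axis, without a pseudocount) for 7 members (x axis), over all kept cells in black, enterocyte-like in green, enteroendocrine-like in purple and proliferating-like cells in red. Bars are 95% intervals for counting error; points for Rdh7 lie below 0 and points for Aldh1a1 above 0 in each group shown, and the Rbp4 point of enterocyte-like cells rests on 2 UMIs in set 2.

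Shares of cells at 2000 UMIs had intervals apart between the sets for 3 of 8 members, beside 2.73% of all genes tested, in the direction of their levels: Rdh7 in 8.89% and 4.48% of cells, Rbp4 in 2.28% and 4.10% and Aldh1a1 in 3.02% and 6.98%. The unthinned shares were 52.2% and 33.5%, 6.78% and 10.0%, and 20% and 34.3%. Rbp2 was expected in 25.5% and 22.2% of cells, against its higher level in set 2. Its share was lower in set 2 with intervals apart at 5000 UMIs per cell (44.0% and 34.6%) and unthinned (74.6% and 65.9%), and since this goes against its level no order is read from it. Of 8 members, 5 had shares apart at 5000 UMIs, beside 5.50% of all genes, and 5 unthinned, beside 34.0%. In barcodes left out for their mitochondrial share, with CPM taken over non-mitochondrial UMIs, Rdh7 stood at 68.3 and 29.9 and Aldh1a1 at 31.4 and 72.0, against 58.5 and 29.8 and against 23.4 and 59.9 in kept cells. Rbp4 was lower there, at 11.7 and 4.64 against 27.8 and 59.3.

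A list of 53 other genes of retinoid metabolism, of which 51 are in the matrix and 40 had enough UMIs between the sets, gave the surroundings of the members. Of the 40, 3 were higher in set 2, 3 in set 1 and 34 not apart, beside 3.86% of all genes apart in either direction, with a median log2 ratio of 0.06 beside 0.03 over all genes. The higher ones were Ces1f (1.30) and Ces1d (0.59), carboxylesterases, and Aldh1a7 (0.61). The lower ones were the binding proteins Rbp7 (-1.20) and Rbp3 (-0.72) and the alcohol dehydrogenase Adh7 (-1.22), which stood under 10 CPM in each class and is named after its value was seen. In enterocyte-like over other cells 19 of 38 were higher in each set, beside 10.0% and 11.1% of all genes tested, and 5 and 6 were lower. Adh1, an alcohol dehydrogenase that oxidises retinol, stood at 411 and 338 CPM in enterocyte-like cells, above Rdh7, and Dgat1, an acyltransferase that can esterify retinol, at 176 and 204 CPM, above Lrat. Bco2, the second carotenoid cleaving enzyme, stood at 16.0 and 22.7 CPM in enterocyte-like cells and at 0.525 and 0.994 CPM in enteroendocrine-like cells, the reverse of the order of Bco1.

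In enteroendocrine-like over other cells 13 and 12 of 38 genes of the list were higher, beside 40.6% and 36.9% of all genes tested, and 10 and 12 were lower, beside 14.4% and 16.7%. Ttr, the plasma partner of Rbp4, stood at 508 and 524 CPM there against 60.1 and 37.4 CPM in enterocyte-like cells. Stra6l, a receptor for Rbp4, stood at 24.2 and 23.6 CPM against 4.63 and 5.30 CPM. Rbp3, a retinoid binding protein known from the retina, stood at 23.9 and 4.72 CPM in enteroendocrine-like cells and had no UMI in enterocyte-like cells. Of the receptors, Rara was at 11.3 and 12 CPM over all cells, Rxra at 12.2 and 11.4 and Rxrb at 20.2 and 21.3, while Rarb, Rxrg and the dehydrogenase Rdh19 had 0 UMIs. Aldh1a2 had 1 UMI and Aldh1a3 29, so that Aldh1a1 and Aldh1a7 carried nearly all UMIs of the retinal dehydrogenases listed. The genes under 10 CPM in each class are named here after their values were seen.

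Genes with the profile most like each member were sought among 9492 genes over 8 profiles, 4 classes by 2 sets, with Pearson's r of log2 CPM plus 1. For Rbp2 they were Slc2a2, Npl and Slc7a15 (0.991 each), for Aldh1a1 Fuca2 (0.995), Slc37a2 (0.988) and Tmem120a (0.987), and for Rbp4 N4bp2l1 (0.981), Scg2 (0.974) and Scgn (0.958). For Rdh7 they were Msra (0.978), Endog (0.974) and Cox8a (0.973), for Dhrs3 Mpc2 (0.996), Hadh (0.991) and Slc4a5 (0.990), for Bco1 Elf1 (0.994), Surf4 (0.992) and Lasp1 (0.991), and for Lrat Idh3g (0.975), Idh3b (0.969) and Kctd14 (0.963). Among the members, the closest pairs were Rdh7 with Dhrs3 (0.920) and Rbp2 with Aldh1a1 (0.914), and Rbp4 with Lrat stood farthest apart (-0.753). The profiles share 2 libraries and differ in depth, so these values only describe them.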

How the data were processed

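Single-cell RNA-seq (10x Genomics 3′ chemistry) was run on mouse small intestinal organoids labelled control or melatonin. The deposited files hold raw UMI counts per gene and barcode as the authors made them. The submitters' processing notes name Cell Ranger 3.1.0, bcl2fastq 2.20.0 and STAR 2.7.3a, and the genome build is not given in the sources used here. The files of the 2 labelled samples were identical and were read as 1 sample split by barcode suffix; the names set 1 and set 2 refer to the suffix only. UMIs were summed over cells and given as CPM with exact 95% Poisson intervals. Ratios were taken on CPM plus 1, with calls at 1.5-fold, non-overlapping intervals and at least 10 UMIs. Shares of cells were expected values at 2000 UMIs per cell with Clopper-Pearson intervals, leaving out 265 and 77 shallower cells, and the limit for a count of 0 was 3 UMIs. Gates needed 3 markers and 60 marker UMIs per 10000 (enterocyte, enteroendocrine, goblet or Paneth), 20 (revival) or 10 (proliferating, outside the other gates); these thresholds were set after the marker distributions were seen. No doublet caller was run. With 1 sample no test was made, and intervals cover counting error only. On simulated counts the rule called 100 of 100 genes raised 2-fold, 99 of 100 lowered 2-fold and 0 of 15274 unchanged genes between the sets. These counts were drawn from the same Poisson model as the intervals, without spread between cells or libraries. Changed genes were picked above a minimum level only. The absence of false calls thus follows from the model, and the error rate of the rule on these data was not tested. Sequences were read from a RefSeq table. Every member was named, and for each the 3 genes of highest profile correlation; pathway genes were named from 10 CPM in a class. Members and lists were chosen with earlier results of these data known. Python 3.11.15, numpy 2.4.6, scipy 1.17.1, pandas 2.3.3 and matplotlib 3.10.9 were used, and 18 alternatives were tried.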

Additional observations from a re-analysis of the deposited data

Results flagged for a closer look

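For Rbp2 and Rbp4 the sign of the log2 ratio of set 2 over set 1 differed between classes of cells, and the difference between classes was not tested. Rbp2 stood at 0.34 in enterocyte-like cells, -0.50 in enteroendocrine-like cells, -0.84 in proliferating-like cells and -1.04 in ungated cells. Rbp4 stood at -4.54 in enterocyte-like cells, where 95.9% of the UMIs of set 1 lay in 3 cells, at 1.45 in enteroendocrine-like cells and at 0.47 in ungated cells, where 94.4% of the UMIs of set 2 lay in 3 cells.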

How the results depend on the processing

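No paired analysis was possible because the labels give 1 library a group and no suffix is tied to a label. Of 1094 ratio values over 18 alternatives, 929 stayed within the counting interval, 1068 kept their sign and 2 called ones changed it. Both came with the mitochondrial limit at 10%: Rbp2 between the sets was -0.10, and Aldh1a1 in enteroendocrine-like over other cells of set 1 was 0.15. Over the alternatives the ratio between the sets ranged from -1.43 to -0.77 for Rdh7, from 1.04 to 1.40 for Aldh1a1, from 0.86 to 1.20 for Rbp4 and from -1.16 to -0.45 for Lrat. Changes of the fold, the UMI minimum of a gene or the thinning cannot alter a ratio, and changes of the gates cannot alter one over all cells. Such values were fixed in advance, so these totals and ranges overstate how far the ratios were tried. Some counts were fixed in the same way. Of 188 counts, 173 stayed within 1.5 times. Members apart between the sets numbered 3 at a fold of 2 in place of 5, and pathway genes 3 at a fold of 2 and 1 at a pseudocount of 10 CPM in place of 6. Within enterocyte-like cells members apart numbered 4 with gates at 0.5 times the threshold, and 1 in place of 2 with gates at 2 times the threshold and at a fold of 2, where Aldh1a1 was lost, and, where Rbp4 was lost, without the 3 highest cells of each gene and, as chosen after seeing the data, without enterocyte-like cells that carried enteroendocrine markers. Between peptide hormone and other enteroendocrine-like cells they numbered 2 in place of 1 in set 1 without the 3 highest cells and with gates at 2 times the threshold, and 1 in place of 2 in set 2 in those settings and at a fold of 2. Members with shares of cells apart numbered 5 at 5000 UMIs and 5 without thinning, beside 5.50% and 34.0% of all genes, in place of 3; those gained were Lrat and Rbp2, whose share runs against its level. The causes were not tested. Counts other than that of the shares could not be made where CPM was averaged over single cells, since such a mean has no interval. With 15 UMIs, Cyp26b1 was too shallow to compare between classes.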
